A study of Homo sapiens with 12 samples.

Results

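The 48 genes described here are known for their expression in endothelial cells, the cells that line blood and lymph vessels. They were chosen by their values in a single library, the second of 3 libraries from A549 cells with a VGF lentivirus, called A549 VGF library 2. All 48 were found in the count table, each once, among 26535 features. The series measured messenger RNA in 12 libraries from A549 and NCI-H1299 (H1299), established lines of human non-small-cell lung cancer cells. In each line, 3 libraries came from cells labelled wild type that carried an empty lentiviral vector (controls) and 3 from cells that overexpressed VGF, a secreted neuropeptide precursor, from a lentivirus. All cells were therefore virus-treated, A549 was grown in DMEM/F12 and H1299 in RPMI-1640, and the labels do not say whether the cells were clones or pools. The submitters call the replicates biologically independent.

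Endothelial cells hold vessels closed with junction proteins such as VE-cadherin and claudin-5, respond to VEGF and angiopoietins through receptor tyrosine kinases, and store von Willebrand factor for haemostasis. Their gene programme is set by ETS, SOX, GATA and basic helix-loop-helix transcription factors. Carcinoma cells of the lung are epithelial and are not known for most of these genes, although single members can be expressed in tumour lines.

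Library totals ran from 31378171 to 41919484 counts, and A549 VGF library 2 was the deepest. Its VGF level, 1121 CPM (counts scaled to the library total), was near the 1268 and 1183 CPM of the other A549 VGF libraries and far from the 1.89 to 2.55 CPM of the A549 controls. Its 10 epithelial marker genes summed to 7086 CPM, inside the 6452 to 8436 CPM of the 5 other A549 libraries. The library thus held what its label names, beside the transcripts described below.

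Summed over the 48 genes, A549 VGF library 2 held 1130 CPM. The other A549 libraries held 255.7, 257.3 and 277 CPM with the empty vector and 273.7 and 274.1 CPM with VGF, and the H1299 libraries 121.5 to 136.4 CPM. In bulk RNA, a few cells rich in a transcript and many cells with little of it cannot be told apart. Of the 48 genes, 42 were above every other A549 library and 40 above all 11 other libraries. In 29 of them, called the high genes below, the library had at least 100 counts and at least 10 times the CPM of the highest other A549 library. Over all features 0.46% met this rule (122 of 26535), a background from which nothing is read, because the genes were picked for this contrast. All comparisons with A549 VGF library 2 are likewise descriptions without a test.

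The high genes came from nearly every functional class. They were 10 of 14 junction, adhesion and surface proteins, 7 of 9 signalling receptors, 6 of 10 transcription factors, 4 of 8 secreted and haemostatic proteins and 2 of 5 enzymes and adaptors. Neither of the 2 adhesion molecules of activated endothelium was among them. Just inside the rule were CLDN5, SOX7 and ANGPT2, at 10.8, 14.7 and 15.6 times the highest other A549 library, and just outside were NOS3, RASIP1 and APLN at 9.93, 9.4 and 9.2 times. Against the highest of all 11 other libraries, 24 genes met the same rule.

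**Figure D1:**
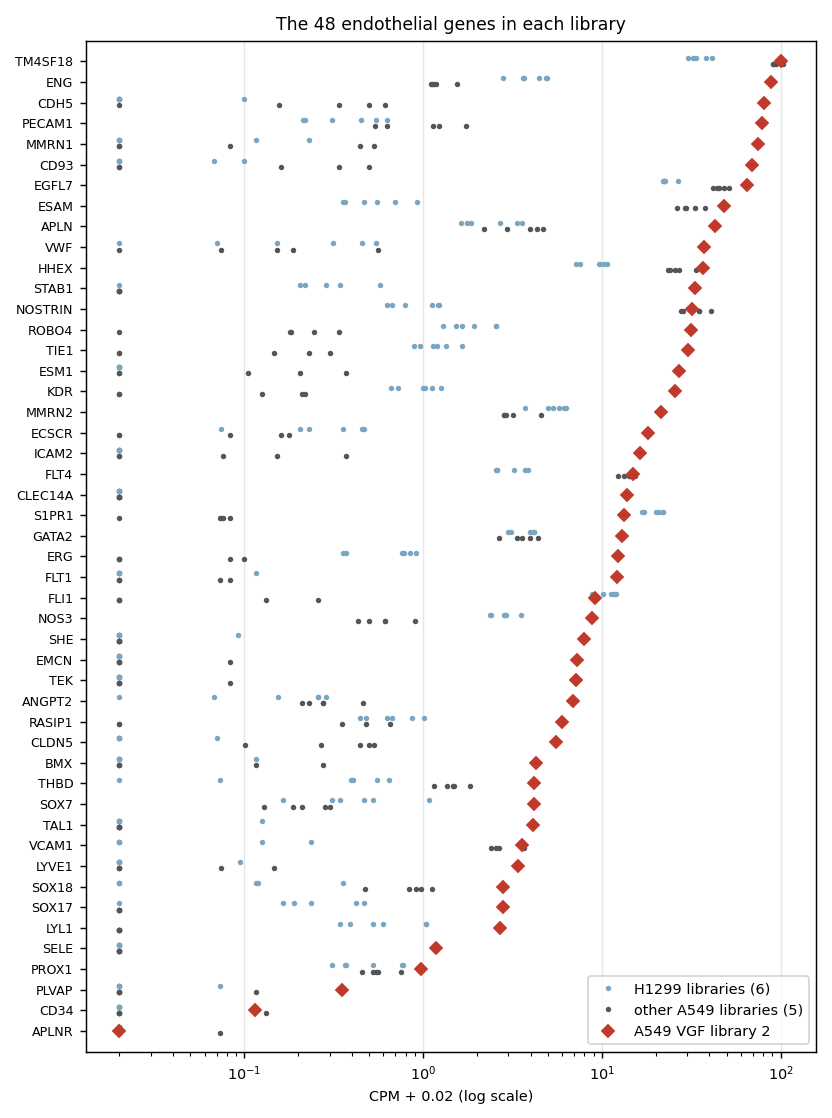
CPM plus 0.02 on a log axis for each of the 48 genes in every library: the red diamond is A549 VGF library 2, grey dots the 5 other A549 libraries and blue dots the 6 H1299 libraries. In 42 of the 48 rows the diamond lies above every grey dot, and TM4SF18, NOSTRIN, FLT4 and VCAM1 are among the rows where it does not.

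Junction proteins gave some of the widest gaps. CDH5 (ENSG00000179776, GRCh38 chromosome 16, 66366622 to 66404786, plus strand) encodes VE-cadherin, the adhesion molecule of endothelial junctions. It had 5, 0 and 21 counts in A549 control libraries 1, 2 and 3, 10, 3387 and 18 counts in A549 VGF libraries 1, 2 and 3, and 0 to 3 counts in the H1299 libraries. A549 VGF library 2 thus stood alone, at 80.8 CPM (exact 95% Poisson interval 78.1 to 83.6), 266 times the pooled level of the 5 other A549 libraries (exact interval 203 to 354). These intervals cover counting error only.

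PECAM1 (ENSG00000261371, chromosome 17, 64319415 to 64413776, minus strand), the platelet and endothelial adhesion molecule CD31, was not silent elsewhere. Its counts were 19, 22 and 61 in the A549 controls, 38, 3305 and 42 in the A549 VGF libraries and 8 to 23 in H1299. The ratio to the pooled A549 level was 76.9 (66.2 to 89.8). CD93, a C-type lectin-domain receptor of endothelium, had 0, 0 and 5 counts in the A549 controls and 10, 2888 and 18 in the A549 VGF libraries, with 0 to 3 in H1299. Its ratio was 371 (263 to 540).

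Several surface proteins were near or at 0 in the other A549 libraries. CLEC14A (ENSG00000176435, chromosome 14, 38254103 to 38256369, minus strand), an endothelial C-type lectin-domain protein, had 580 counts in A549 VGF library 2 and 0 in each of the 11 others. Set against a floor of 3 counts over the 5 other A549 libraries, 0.0169 CPM, its level was at least 819-fold higher. EMCN, the sialomucin endomucin, had 305 counts against 0, 0, 0, 2 and 0 in the other A549 libraries and 0 in all of H1299, and ICAM2, an adhesion ligand for leukocyte integrins, had 684 against 0 to 11 and 0. STAB1, a scavenger receptor of sinusoidal endothelium, had 1396 counts against 0 in all 5 other A549 libraries, at least 1971-fold higher, but 0 to 23 counts in H1299.

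The remaining high surface genes were ECSCR, a regulator of endothelial migration, with 759 counts against 0 to 6 in A549 and 2 to 18 in H1299, LYVE1, the hyaluronan receptor of lymphatic and some other endothelium, with 142 against 0 to 4, and CLDN5. CLDN5, the tight junction protein claudin-5, had 3, 9 and 18 counts in the A549 controls, 15, 231 and 16 in the A549 VGF libraries and 0 to 2 in H1299, which made its ratio to the pooled A549 level only 16 (12.1 to 21.6). Exons of ECSCR share 72.5% of their length with AC142391.1 on the same strand and those of ICAM2 share 26.8% with PRR29 on the opposite strand. How the authors' counting divided such reads is not given in the sources used here, so both levels are uncertain.

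The other 4 surface genes did not follow. TM4SF18, a tetraspanin-like membrane protein, was abundant in every A549 library, with 3339, 3336 and 3659 counts in the controls and 2834, 4226 and 3541 in the VGF libraries, so that 100.8 CPM in A549 VGF library 2 lay inside the range of 90.3 to 103 CPM. ESAM, a junctional immunoglobulin-domain protein, stood at 48.5 CPM against 26.2 to 37.7 CPM, above the others but only 1.56 times their pooled level. CD34, the sialomucin of vascular and haematopoietic progenitor cells, had 4 counts, and PLVAP, the diaphragm protein of fenestrae and caveolae, had 14. Those 2 genes are well-known endothelial markers and were at or near 0 in all 12 libraries.

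Of the receptor tyrosine kinases, 4 of 5 were high. KDR (VEGFR2; ENSG00000128052, chromosome 4, 55078259 to 55125595, minus strand), the main signalling receptor for VEGF-A, had 0, 0 and 7 counts in the A549 controls, 6, 1077 and 4 in the A549 VGF libraries and 24 to 46 in H1299. FLT1, the decoy-like receptor VEGFR1, had 507 counts against 0, 0, 0, 2 and 2 in the other A549 libraries and 0 to 4 in H1299. TEK, the angiopoietin receptor TIE2, had 300 against 0, 0, 0, 2 and 0 and no count in H1299, and TIE1, its partner receptor, had 1275 against 0 to 10, with 33 to 65 in H1299. The exception was FLT4, the VEGF-C receptor VEGFR3 known from lymphatic endothelium. It had 565, 446 and 511 counts in the A549 controls and 442, 626 and 505 in the VGF libraries, so all 6 A549 libraries overlapped at 12.4 to 15.3 CPM.

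ENG (ENSG00000106991, chromosome 9, 127815012 to 127854756, minus strand), the TGF-beta co-receptor endoglin, was the most abundant of the high genes by CPM. It had 43, 40 and 54 counts in the A549 controls, 34, 3694 and 43 in the A549 VGF libraries and 103 to 205 in H1299. That is 88.1 CPM against 1.08 to 1.53 CPM in the other A549 libraries, a ratio of 73.1 (63.7 to 84.3). ROBO4, a guidance receptor that stabilizes vessels, had 1323 counts against 0 to 12, with 53 to 106 in H1299. S1PR1, the sphingosine 1-phosphate receptor that strengthens the endothelial barrier, had 2, 0 and 2 counts in the A549 controls and 2, 554 and 2 in the VGF libraries, but 631 to 840 counts in H1299. It was thus above every A549 library and below every H1299 library. APLNR, the apelin receptor, had 0 counts, which allows up to 0.0716 CPM at 3 counts.

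Transcription factors of the endothelial programme were also present, at levels that overlapped those of the surface proteins and receptors. ERG (ENSG00000157554, chromosome 21, 38380027 to 38661780, minus strand), the ETS factor most characteristic of endothelium, had 0 counts in all 3 A549 controls, 2, 515 and 3 in the A549 VGF libraries and 14 to 33 in H1299. FLI1, a related ETS factor, had 381 counts against 0, 0, 4, 0 and 9, and like S1PR1 it was abundant in H1299, with 333 to 481 counts. TAL1, a basic helix-loop-helix factor of blood and endothelium, had 171 counts and its relative LYL1 had 112, both against 0 in the 5 other A549 libraries. The H1299 libraries had 0 to 4 counts of TAL1 and 13 to 42 of LYL1.

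The SOX-F factors, 3 related regulators of vessel formation, differed among themselves. SOX17 had 116 counts against 0 in the other A549 libraries, at least 164-fold higher, and SOX7 had 174 against 4 to 10. SOX18 had the same 116 counts as SOX17, yet the other A549 libraries already held 16 to 40, a ratio to the pooled level of 3.28 (2.55 to 4.20). SOX7 shares 39.4% of its exon length with PINX1 on the same strand, which leaves its level uncertain. GATA2, a zinc-finger factor of endothelium and blood progenitors, had 543 counts against 95 to 149 (ratio 3.65, 3.24 to 4.10), HHEX, a homeobox factor of early endothelium and foregut, 1534 against 850 to 1060, and PROX1, the factor of lymphatic identity, 40 against 16 to 26.

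Among the secreted proteins, MMRN1 and VWF stood out. MMRN1 (ENSG00000138722, chromosome 4, 89879532 to 89954629, plus strand), the platelet and endothelial protein multimerin 1, had 0, 0 and 18 counts in the A549 controls, 2, 3130 and 16 in the A549 VGF libraries and 0 to 8 in H1299. VWF (ENSG00000110799, chromosome 12, 5948874 to 6124770, minus strand), the von Willebrand factor, had 2, 6 and 0 counts in the controls, 17, 1559 and 5 in the VGF libraries and 0 to 22 in H1299. Their ratios to the pooled A549 level were 368 (265 to 527) and 220 (154 to 327). ESM1, the proteoglycan endocan of sprouting tip cells, had 1126 counts against 0 to 11 and no count in H1299. ANGPT2, the angiopoietin that endothelium releases on activation, had 290 against 7 to 16.

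The other secreted members were expressed by A549 itself. APLN, the peptide apelin, had 160, 169 and 139 counts in the A549 controls and 68, 1805 and 111 in the VGF libraries, a ratio of 11.8 to the pooled level (10.8 to 13.0). THBD, the anticoagulant receptor thrombomodulin, had 174 counts against 41 to 64 (ratio 2.88), and EGFL7, a vascular matrix protein, 2721 against 1383 to 1861 (ratio 1.40). MMRN2, a ligand of CD93 and CLEC14A, had 895 against 102 to 143. Its ratio was 6.65 in counts but 2.03 in the deposited FPKM, which also divides by feature length. This was the widest disagreement between the scales, and 8.25% of its exon length lies under ADIRF-AS1 on the same strand.

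Of the enzymes and adaptors, SHE, an SH2-domain adaptor, had 331 counts against 0 in the other A549 libraries and BMX, a TEC-family kinase, 178 against 0 to 9. NOS3, the endothelial nitric oxide synthase, had 369 counts against 13 to 32 and RASIP1, a RAS-interacting protein needed for vessel lumens, 250 against 0 to 24, which put both just below the 10-fold mark. NOSTRIN, an adaptor that traffics NOS3, had 1332 counts against 1025 to 1447 and did not stand apart. Of the adhesion molecules of activated endothelium, SELE (E-selectin) had 49 counts and 0 in each of the 11 others, at least 69.2-fold higher than in A549, and VCAM1 had 149 against 80 to 135 counts, inside the A549 range by CPM. NOS3 shares 13.2% of its exon length with ATG9B on the opposite strand.

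Per length, on the deposited FPKM scale, the order of the genes within A549 VGF library 2 was set partly by what A549 expresses itself. EGFL7 was highest at 43.3 FPKM, followed by ENG at 27.1, TM4SF18 at 25.5, ESAM at 24.9, HHEX at 20.9 and CDH5 at 18.6. As a difference from the median of the 5 other A549 libraries the order was ENG (26.7 FPKM), CDH5 (18.6), ECSCR (16.3), MMRN1 (14.1), ICAM2 (12.5) and ESM1 (12.3). APLN and PECAM1 followed at 11.5 and 10.8 FPKM. The transcription factors added less than these, with HHEX (6.18), GATA2 (3.90), ERG (2.37) and FLI1 (2.22) at the top of their class. HHEX was only just above the other A549 libraries, which ranged from 13.65 to 19.55 FPKM. ERG and FLI1 reached at most 0.0128 and 0.0514 FPKM in them. Since the level is from 1 library, neighbours in this order have no replicate spread to set them apart.

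**Figure D2:**
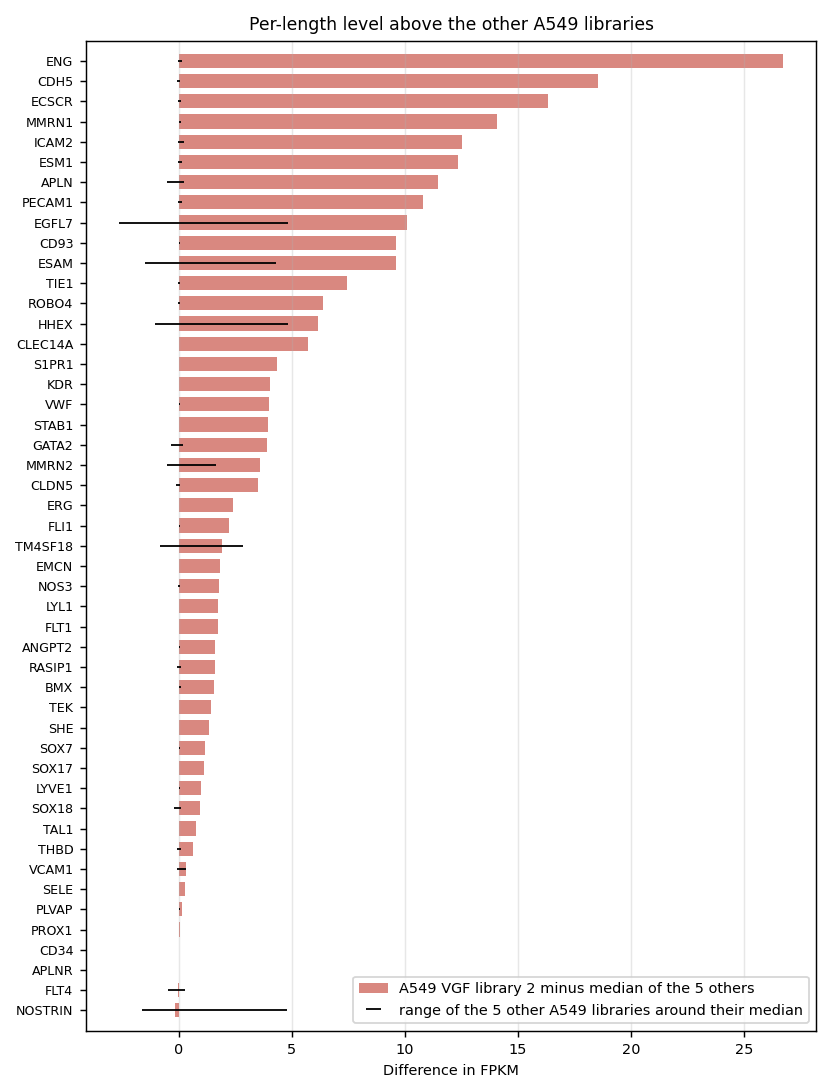
Bars give FPKM in A549 VGF library 2 minus the median of the 5 other A549 libraries for each of the 48 genes, and black lines the range of those 5 libraries around their median. ENG reaches 26.7 FPKM with a narrow range, while for EGFL7, ESAM, HHEX and NOSTRIN the black lines show how widely the other libraries themselves vary.

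ETS factors such as ERG and FLI1, both among the high genes, bind a GGAA core, and endothelial promoters are known for such sites. RefSeq promoter windows of 300 bases (250 before and 50 after a start site, GRCh38.p14) were given for 31 of the 48 genes. The letters CAGGAAG, or CTTCCTG on the other strand, occurred in a window of 13 of the 31 (41.9%), against 15.2% of 27305 genes. Among the high genes the share was 6 of 18 (33.3%). The windows of 4 of these 6 are shown, those of MMRN1, ROBO4, S1PR1 and ERG. ECSCR and BMX also held the letters and are not shown. The 4 windows read as follows 5′ to 3′ on the gene's strand, with the matched letters in capitals.
MMRN1, chr4:89894604-89894903, plus strand: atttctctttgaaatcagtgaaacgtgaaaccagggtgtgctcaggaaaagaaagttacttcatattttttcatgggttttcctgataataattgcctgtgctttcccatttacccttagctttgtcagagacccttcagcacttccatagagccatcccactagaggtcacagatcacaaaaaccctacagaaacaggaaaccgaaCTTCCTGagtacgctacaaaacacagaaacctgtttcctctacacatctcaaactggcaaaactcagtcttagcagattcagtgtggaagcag
ROBO4, chr11:124897816-124898115, minus strand: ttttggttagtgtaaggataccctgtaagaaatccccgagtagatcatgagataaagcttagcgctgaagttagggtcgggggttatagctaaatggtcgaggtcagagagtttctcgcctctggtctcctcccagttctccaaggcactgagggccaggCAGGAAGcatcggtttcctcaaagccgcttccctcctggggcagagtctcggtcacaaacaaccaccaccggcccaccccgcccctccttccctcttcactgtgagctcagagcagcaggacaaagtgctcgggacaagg
S1PR1, chr1:101236769-101237068, plus strand: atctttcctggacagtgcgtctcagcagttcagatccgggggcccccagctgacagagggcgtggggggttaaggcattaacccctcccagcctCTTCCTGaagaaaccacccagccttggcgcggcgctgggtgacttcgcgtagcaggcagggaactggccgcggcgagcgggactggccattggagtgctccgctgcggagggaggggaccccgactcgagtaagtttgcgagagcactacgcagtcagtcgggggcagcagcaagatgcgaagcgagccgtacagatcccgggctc
ERG, chr21:38498455-38498754, minus strand: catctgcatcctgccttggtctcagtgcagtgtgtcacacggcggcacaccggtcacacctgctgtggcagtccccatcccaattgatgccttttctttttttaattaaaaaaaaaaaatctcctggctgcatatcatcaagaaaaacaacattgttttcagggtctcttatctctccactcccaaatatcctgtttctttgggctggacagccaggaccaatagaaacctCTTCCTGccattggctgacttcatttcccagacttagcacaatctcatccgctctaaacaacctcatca

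The matches began 43, 90, 156 and 19 bases before the start site in MMRN1, ROBO4, S1PR1 and ERG. A variant with another base pair before the core, CCGGAAG or CTTCCGG, was in the window of 1 of 31 (3.23%, NOSTRIN), against 12.2% of all genes. The GATA-type letters AGATAA (or TTATCT) were in 5 of 31 (16.1%, all high genes: ERG, LYL1, ROBO4, TAL1 and TEK) against 12.4%, the SOX-type letters AACAAT (or ATTGTT) in 5 of 31 (16.1%) against 12.2%, and TATAAA (or TTTATA) in 4 of 31 (12.9%) against 14%. These are letter matches and no binding was measured. No factor can be drawn from them.

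Traces of some of these transcripts were found in other A549 libraries. Of the high genes, 10 had at most 3 counts in any H1299 library (CDH5, CLDN5, ICAM2, EMCN, CLEC14A, CD93, LYVE1, TEK, ESM1 and SHE). They summed to 9974 counts in A549 VGF library 2, or 238 CPM. A549 VGF libraries 1 and 3 had 65 and 64 counts and A549 control library 3 had 49, which is 0.871%, 0.711% and 0.582% of the CPM in A549 VGF library 2. A549 control libraries 1 and 2 had 10 and 9 counts (0.114% and 0.105%), and the H1299 libraries 0 to 6 counts. The 9 counts of control library 2 were all of CLDN5. CLEC14A and SHE had 0 counts in each of the 5 other A549 libraries.

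The exact Poisson intervals of these sums were 0.13 to 0.499 and 0.114 to 0.473 CPM in control libraries 1 and 2, 1.02 to 1.83 CPM in control library 3, and 1.60 to 2.64 and 1.30 to 2.16 CPM in VGF libraries 1 and 3. They cover counting error only, and over all features pairs of these 5 libraries from the same group differed by 7.6 to 13.0 times what counting error gives (chi-square per degree of freedom), so intervals that do not meet do not separate the libraries. VGF library 1 had counts of 8 of the 10 genes, VGF library 3 and control library 3 of 5 each, and control libraries 1 and 2 of 3 and 1. In the count table a value of 1 occurred 1581 times and a value of 2 occurred 5352 times. A fragment may thus have added more than 1 count, in which case these intervals are too narrow; this was not tested.

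**Figure D3:**
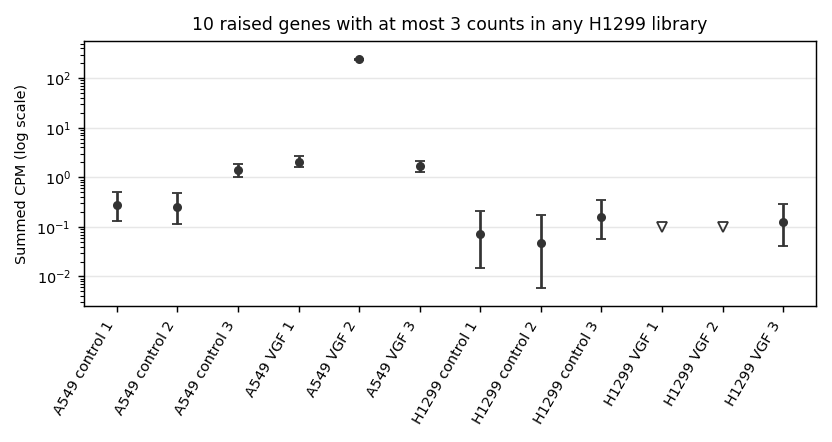
Summed CPM on a log axis of the 10 high genes with at most 3 counts in any H1299 library, with exact 95% Poisson intervals; open triangles are upper limits for libraries with 0 counts. A549 VGF library 2 stands at 238 CPM, A549 VGF libraries 1 and 3 and control library 3 at 1.38 to 2.07 CPM, and all others below 0.3 CPM.

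Genes outside the 48 shared the pattern. Among 12520 features with a symbol and at least 1 CPM in A549 VGF library 2, likeness was measured as its CPM plus 0.1 over the highest CPM of the 11 other libraries plus 0.1. By this measure CLEC14A (139), MMRN1 (123), CD93 (120) and CDH5 (117) led the 48 genes. Among the 20 most like others were MT1E, CLDN11, TINAGL1, MYCT1, MMP1, ADGRL4, PDLIM4, SULT1B1, MRC1, ADGRF5, RGS4, GIMAP4, FGD5, DIPK2B, ARHGEF15, SHROOM4, C1QTNF5, GIMAP6 and SPARC, with likeness from 103 (MT1E) to 24.8 (SPARC). MMP1, interstitial collagenase, was the most abundant, with 13563 counts against 6 to 79 in the other A549 libraries and 142 to 234 in H1299. On the per-length scale it reached 154 FPKM, above each of the 48 genes. MT1E, a metallothionein, had 427 counts and 0 in each of the 11 others.

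A list of 43 further endothelial-enriched genes in the table held 13 that met the rule of the high genes. The closest were MYCT1 with 591 counts against 0 to 4, ADGRL4, an adhesion receptor, with 910 against 0 to 11, ADGRF5 with 257 against 0, and GIMAP4, a GTPase of the immune-associated family, with 253 against 0 to 2. Of those that A549 expresses at a high level, TFPI, the tissue factor pathway inhibitor, and ABCG2, a transporter, stood at 0.978 and 1.02 times the pooled A549 level. RAMP3, GJA4 and CLIC5 had 0 counts in that library.

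Genes that separate kinds of vessels gave less. None of 16 arterial and Notch genes met the rule: GJA4 and GJA5 had 0 counts, EFNB2 had 162 against 31 to 41, and HEY2 and DLL4 had 14 and 18 counts. No venous gene of 7 met it either, although TLL1, a metalloprotease, had 91 counts against 0 to 3, while NR2F2, the venous identity factor, was at 59.1 CPM against a pooled A549 level of 41.8. Of 7 lymphatic genes, PDPN, CCL21 and RELN had 0 counts, TFF3 had 24 against 0 and FOXC2 had 352 against 106 to 184. None of the 7 met the rule, although 3 were above every other A549 library. So were 6 of the 16 arterial and Notch genes and 6 of the 7 venous genes. PTPRB, the endothelial phosphatase VE-PTP, was the 1 of 9 VEGF and angiopoietin pathway genes to meet it, with 515 counts against 0 to 7 (it is also in the endothelial-enriched list), and PGF, placental growth factor, had 795 against 79 to 105. Among 35 matrix and secreted genes shared with other cell types, SPARC, BGN, COL8A1 and LAMA4 met it. LAMA4, the laminin chain of endothelial basement membranes, had 1296 counts against 0 to 5.

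Of the markers of other cell types, 3 met the rule of the high genes, and which cells gave their transcripts was not tested. None of 13 leukocyte, 10 erythroid, 8 platelet, 9 striated muscle, 12 neuronal and glial, 5 melanocyte, 8 hepatocyte or 8 squamous genes met the rule. Summed levels in A549 VGF library 2 were 3.70 CPM for leukocyte genes against 4.55 to 5.98 in the other A549 libraries, 0.310 against 0.370 to 0.763 for erythroid genes and 3.36 against 4.63 to 7.62 for platelet genes. The 3 exceptions were MRC1, the mannose receptor (494 counts against 0 to 5; 1 of 11 monocyte and macrophage genes), POSTN, periostin (473 against 0 to 6; 1 of 14 fibroblast genes), and RGS5, a regulator of G-protein signalling (1287 against 31 to 62; 1 of 12 pericyte and smooth muscle genes). The whole lists summed to 26.7 CPM against 16.5 to 18.6 for monocyte and macrophage genes and 100.7 against 95.5 to 108 for fibroblast genes. MRC1 alone gave 11.8 of the 26.7 CPM, and it was the only 1 of those 11 genes above every other A549 library. For pericyte and smooth muscle genes the sum was 216 against 217 to 246. That sum was not raised although RGS5 was, so a list sum can miss a rise of single genes. In that library 8 of the 11 monocyte and macrophage genes were at 0 (among them CD163, C1QA, C1QB, C1QC and AIF1). So were 4 of the 14 fibroblast genes (among them COL1A2, FAP and DPT) and 2 of the 12 pericyte and smooth muscle genes (ACTG2 and ABCC9). In the same order of lists, 2, 9 and 5 genes had at least 10 counts there.

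**Figure D4:**
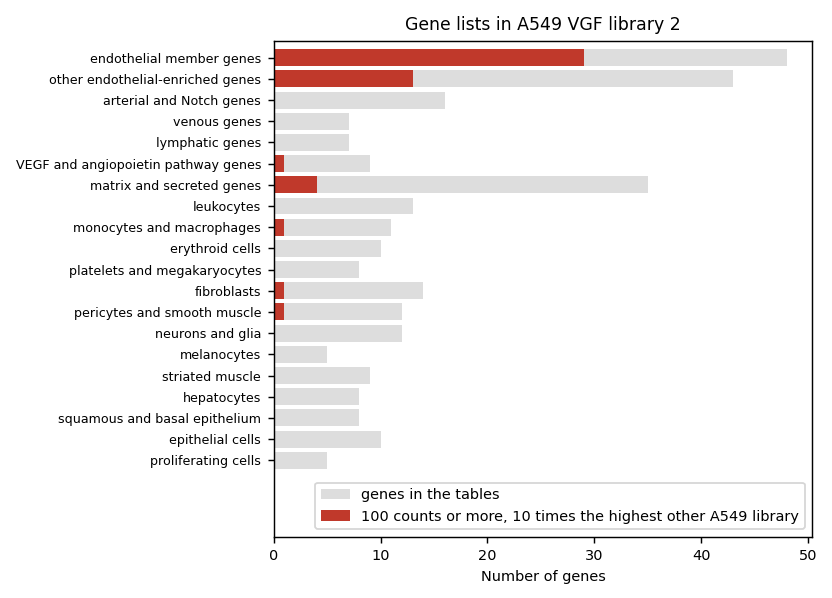
For each gene list, the grey bar is the number of genes in the count table and the red bar the number with at least 100 counts and at least 10 times the highest other A549 library in A549 VGF library 2. Red reaches 29 of 48 for the endothelial genes described here and 13 of 43 for the further endothelial-enriched genes, 4 of 35 for matrix genes and at most 1 for every other list.

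The whole table gave the same library the most features of its own. In A549 VGF library 2, 43 features had at least 20 counts and at most 3 in each other library, 5 of them among the 48 genes (CLEC14A, SHE, EMCN, TEK and SELE), whereas the other 11 libraries had 1 to 3 such features each. The 122 features at 10 times or more the highest other A549 library took 0.222% of its counts. Features known from H1299 were also traced: of 112 features with at least 10 CPM in all H1299 libraries and at most 3 counts in each other A549 library, 68 had 0 counts in A549 VGF library 2, their median was 0%, and together they stood at 0.805% of their H1299 level. S1PR1, 1 of the 48 genes, is among these 112 features, and it gave 42.5% of their summed CPM in that library. Without it the others stood at 0.465%. In each other A549 library the same sum was 0.00385% to 0.0591%, over its own set of 75 to 86 features found in the same way, so these percentages are not of the same features. CDKN2A and CDKN2B, neighbours that A549 cells are known to have lost, had 51 and 30 counts there against 0 to 11 and 0 to 4. Whether H1299 RNA had a part in this was not tested.

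The vector effect on these genes was tested in 11 libraries, without A549 VGF library 2, because that library had served to choose the genes. Of the 48 genes, 33 passed the filter on low counts. STAB1, LYL1 and SOX17 were among them but had 0 counts in all 5 A549 libraries of the fit, so they could not be called in A549. In A549, edgeR called 0 of the 33 between VGF and empty vector (background 0.514% of 18694 features), 2 had an unadjusted p under 0.05, and DESeq2 and limma on FPKM called 0. These 2 were ERG and APLN. ERG had 0 counts in all 3 controls and 2 and 3 counts in the remaining VGF libraries (adjusted p = 0.261). APLN stood at 4.63 ± 0.434 CPM in the controls (TMM-scaled, SD, n = 3) and at 2.76 ± 0.615 CPM in the remaining VGF libraries (n = 2), a log2 difference of -0.74 with an SE of 0.241 and an adjusted p of 0.260. The median log2 fold change of the 33 genes, with STAB1, LYL1 and SOX17 entered at 0, was 0.31 against 0 for all features. The trace of the 10 genes given above was higher in VGF libraries 1 and 3 than in control libraries 1 and 2. Control library 3, at 1.38 CPM (1.02 to 1.83), overlapped both VGF libraries by its interval. The part of the trace in that median was not tested.

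With A549 VGF library 2 in the fit, edgeR again called 0 of 34 genes tested (background 0.79%), but 26 had an unadjusted p under 0.05 and the median log2 fold change was 3.05. The APLN estimate then changed sign, to a log2 difference of 1.90 with an SE of 0.817 and an adjusted p of 0.328. The single high library widened the spread as well: for ENG the estimate was 4.58 with an SE of 1.32, against -0.18 with an SE of 0.302 without it. These 12-library values hold the contrast that chose the genes and support nothing.

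In H1299, edgeR called 0 of 33 genes between VGF and empty vector (background 0.0214%), with 2 at an unadjusted p under 0.05. APLN had 76, 72 and 61 counts in the controls and 100, 123 and 143 in the VGF libraries, which do not overlap, and its log2 difference was 0.90 with an SE of 0.215 and an adjusted p of 0.256 in edgeR. DESeq2 called APLN alone (adjusted p = 0.0393; background 0.597% of 23949 features), and limma on FPKM called 0. TM4SF18 stood at 29.4 ± 0.705 CPM in the controls and 35.2 ± 3.39 CPM in the VGF libraries (SD, n = 3), and its log2 difference of 0.27 with an SE of 0.0765 had an adjusted p of 0.373 in edgeR.

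The lines themselves differed in many of these genes. With the empty vector and A549 VGF library 2 left out, edgeR called 24 of 33 genes between H1299 and A549 (background 76.7%), 12 higher in H1299 (background 38.8%) and 12 higher in A549 (background 37.9%). The shares were near those of all features. Among these calls, ERG, LYL1, SOX17 and STAB1 could only be called as higher in H1299, and CLDN5 only as higher in A549, as described below. The medium differed with the line and cannot be told apart from it. Of the 12 higher in H1299, 10 were high genes, and of the 12 higher in A549, 2 were. The rule for high genes asks for a low level in A549, so this split is no finding.

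S1PR1 and FLI1 were expressed in H1299 and nearly silent in A549. S1PR1 stood at 16.7 ± 1.69 CPM in H1299 controls and 0.0394 ± 0.0342 in A549 controls (SD, n = 3, TMM-scaled), and its log2 difference was 8.62 with an SE of 0.285 and an adjusted p of 1.52e-11. FLI1 stood at 9.46 ± 1.40 against 0.0401 ± 0.0694 CPM (log2 difference 7.80, SE 0.617, adjusted p = 9.02e-08). ENG (4.03 against 1.36 CPM), MMRN2 (5.31 against 3.15), NOS3 (2.65 against 0.742), ROBO4 (1.70 against 0.138), TIE1 (0.980 against 0.1) and KDR (0.833 against 0.0702) were also higher. ERG, LYL1, SOX17 and STAB1 had 0 counts in every A549 control. Their H1299 levels were at least 19.2-fold, 20.7-fold, 7.77-fold and 7.77-fold higher than a floor of 3 counts over those controls. These genes passed the filter on low counts through the H1299 libraries, so they could only be called as higher in H1299. Their direction is therefore no finding. SOX17 and STAB1 rested on 30 counts each over the 3 H1299 controls, and they were filtered out without H1299 control library 3 (SOX17) or 2 (STAB1), or without H1299 VGF library 3 (SOX17).

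Genes that A549 expresses itself led the calls in its favour. ESAM stood at 30.3 ± 2.07 CPM in A549 controls and 0.407 ± 0.0866 in H1299 controls (SD, n = 3), and its log2 difference was -6.19 with an SE of 0.229 and an adjusted p of 4.62e-11. NOSTRIN stood at 34.7 ± 7.67 against 0.978 ± 0.219 CPM (-5.13, SE 0.225, adjusted p = 2.49e-10) and TM4SF18 at 102 ± 6.82 against 29.4 ± 0.705 CPM (-1.79, SE 0.0765, adjusted p = 1.94e-10). VCAM1 (3.10 against 0.068 CPM), FLT4 (15 against 3.14), HHEX (26.6 against 8.70), EGFL7 (50.6 against 20.6) and APLN (4.63 against 1.60) were higher too.

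The last 4 calls in this direction were of low genes. CLDN5 had 3, 9 and 18 counts in the A549 controls and 0 in all 3 H1299 controls, at least 12.9-fold higher in A549 (adjusted p = 0.00319). It passed the filter on low counts through the A549 libraries, so it could only be called as higher in A549. PECAM1 had 19, 22 and 61 counts in the A549 controls against 8 to 20 in the H1299 controls (adjusted p = 0.0226). A549 control library 3, with the largest trace of the controls, was the highest for both, but CLDN5 is itself 1 of the 10 genes of that trace. Without this library the log2 fold change of PECAM1 went from -1.68 to -0.94 and the call was lost (adjusted p = 0.179), as it was without H1299 control library 1 (0.0775) or 2 (0.0622). THBD was called at an adjusted p of 0.0282, which became 0.0516 or 0.0696 when A549 control library 1 or 3 was left out and 0.0596 or 0.0723 when H1299 control library 1 or 3 was. SOX18 was called at 0.0303, which became 0.0589 or 0.0791 when A549 control library 1 or 2 was left out and 0.0811 or 0.061 when H1299 control library 2 or 3 was. All these p-values are from edgeR with Benjamini-Hochberg adjustment over all features.

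With A549 VGF library 2 in the fit, 14 of 34 genes were called between the lines (background 77.2%), all of them among the 24. The group means behind this contrast do not include that library. It entered through the shared spread: the SE of S1PR1 went from 0.285 to 1.81 at log2 fold changes of 8.62 and 8.61, and APLN, ENG, KDR, MMRN2, NOS3, PECAM1, ROBO4, SOX17, STAB1 and TIE1 lost their calls.

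**Figure D5:**
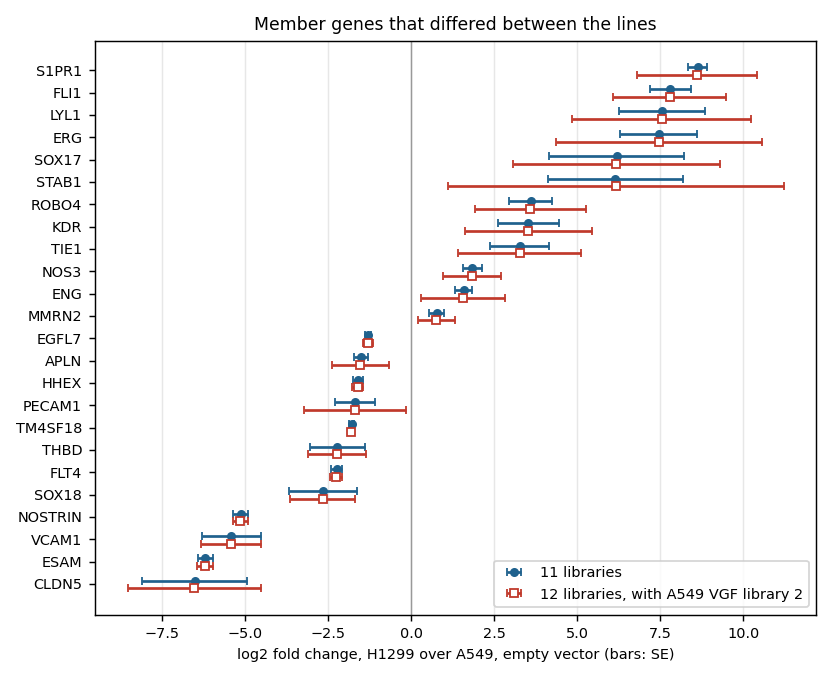
log2 fold change of H1299 over A549 with empty vector, with its SE, for the 24 called genes, in the fit of 11 libraries (filled blue circles) and of 12 libraries (open red squares). The estimates of both fits lie close together, while the bars of genes that were high in A549 VGF library 2, such as S1PR1, ENG and ROBO4, are longer with 12 libraries.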

How the data were processed

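RNA-seq was deposited for 12 libraries, 3 in each of 4 groups. The authors deposited raw counts per feature. The FPKM values the authors deposited beside them also divide by length and library size. GRCh38 and DESeq2 are named in the submitters' processing notes. No aligner, counting tool, annotation release or use of strand is given in the sources used here. Of 26535 features, 19974 carry an Ensembl ID, all found in GENCODE 29, which gave the coordinates, and 6561 are unannotated. 18 stray lines without a feature were left out of each table. Groups follow the titles and characteristics. The free-text treatment note names the empty vector for every library and was not used.

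The 48 genes and all lists were chosen with earlier results of these data known. CPM are counts scaled to the library total, and TMM-scaled CPM also use the scaling factor of edgeR. Intervals are exact Poisson and exact conditional binomial intervals at 95%, and levels at 0 were set to a floor of 3 counts. Both cover counting error only and treat counts as independent, although values of 2 (5352) outnumber values of 1 (1581) in the table. Named genes are the high genes (at least 100 counts in A549 VGF library 2 and 10 times the highest other A549 library), called genes, the other members by range, the 20 most like non-members (1 of which is not reported here) and up to 4 genes per list.

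Counts of 11 libraries, without A549 VGF library 2, entered edgeR's quasi-likelihood test (edgeR 4.0.16, R 4.3.3, 4 group means, TMM, filterByExpr, Benjamini-Hochberg over 18694 features, called at adjusted p under 0.05). It had 7 residual and 5.31 prior degrees of freedom and was checked on simulated counts. SEs were derived from the F statistic. DESeq2 1.42.0, limma 3.58.1 on log2 FPKM with a pseudocount of 1 or 0.1, other scalings and filters, a replicate block and leaving out single libraries were tried. Replicates differed by more than sampling noise. Promoter windows are RefSeq's, GRCh38.p14.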

Additional observations from a re-analysis of the deposited data

Results flagged for a closer look

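APLN, which encodes the peptide apelin, moved in opposite directions with the VGF vector in the 2 lines once A549 VGF library 2 was left out. Both remaining A549 VGF libraries (2.17 and 2.94 CPM) were below all 3 A549 controls (3.93 to 4.68 CPM), and all 3 H1299 VGF libraries (2.66 to 3.57 CPM) were above all 3 H1299 controls (1.61 to 1.84 CPM). The difference of log2 fold changes, H1299 minus A549, was 1.64 (SE 0.323), with an adjusted p of 0.082 in edgeR and 0.00172 in DESeq2. Neither within-line effect was called by edgeR. With A549 VGF library 2, where APLN had 1805 counts, the A549 effect took the opposite sign. APLN was picked from the 33 tested genes because its libraries did not overlap, in opposite directions, in the 2 lines. The lack of overlap is therefore how it was chosen and is no support of its own.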

How the results depend on the processing

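With A549 VGF library 2 in the fit, members called between the lines went from 24 to 14, and the A549 effect on APLN reversed, from a log2 fold change of -0.74 to 1.90. DESeq2 called 1 member in H1299 (APLN) where edgeR called 0. The summed level of the 48 genes in A549 VGF library 2 was 1210 CPM with TMM factors and 860.3 CPM without the 3 most abundant genes, against 1130 CPM. Features held by that library alone numbered 18 with at least 50 counts there and 25 with at most 1 count elsewhere, against 43. Leaving out 1 library at a time gave 21 to 24 calls between the lines, 0 in A549, 0 in H1299 and 29 to 30 high genes. Where this left the A549 VGF group with 1 library, that library was assumed to vary like the other groups. The remaining alternatives kept each count within 1.5 times. Among genes with an unadjusted p under 0.05 in the 11-library fit, 467 values kept direction and call, 32 lost the call, 1 gained it and 1 reversed. Outside that tally, ECSCR gained a call between the lines on FPKM with either pseudocount and without A549 control library 3, and CDH5 without A549 control library 2 or H1299 control library 3.

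Replicate numbers did not pair the samples: same-numbered libraries of a line had correlations of their deviations of -0.0916 to 0.0361, and not every library correlated best with its own number. With the replicate number as a block, 16 members were called between the lines (63.8% of all features, against 76.7% without it), 0 in A549 and 0 in H1299.

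The excess in A549 VGF library 2 was seen in 1 library, so it has no replicate. Depth limits the sparse genes: in any single library a level under 0.0716 to 0.0956 CPM is fewer than 3 counts, and 15 of the 48 genes had too few counts to be tested.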
